A study of Homo sapiens with 6 samples.

Results

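A set of 10 genes of the RGS family was followed in THP1 cells, an established line from a monocytic acute myeloid leukaemia, grown with or without the Notch ligand Delta-like 4. They were RGS1, RGS2, RGS3, RGS10, RGS12, RGS13, RGS14, RGS16, RGS18 and RGS19, and were taken as every probe set that the platform annotation gives exactly 1 gene symbol among these names. This gave 31 of the 54675 probe sets on the array, and 10 of the 19775 genes with a probe set of their own. The Dll4-Fc group grew on a Dll4-Fc coating, the Delta-like 4 protein joined to an antibody Fc part, and RNA was taken at 48 hours. The control is named vehicle in the protocol and untreated in the sample labels, and the latter name is used here. The coating is 30 nM in the protocol and 60 nM in the sample labels, so the dose is uncertain. Each group had 3 arrays, 6 in all, 1 sample each, hybridised with amplified cDNA from 5 ng of total RNA. All cells are of 1 established line, no coating with Fc alone is named, and separate cultures are not stated for the replicates. The p-values therefore rest on a spread among samples that may be technical.

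RGS proteins are brakes on G protein signalling. A receptor loads the alpha subunit of a heterotrimeric G protein with GTP, and the RGS domain speeds the hydrolysis of that GTP, which lets the alpha subunit rejoin the beta and gamma subunits and ends the signal. In blood cells these proteins limit how strongly and how long a cell responds to chemokines, complement fragments and lipid mediators. RGS1, RGS2, RGS3, RGS13, RGS16 and RGS18 belong to the R4 subfamily, most of them small proteins with little beyond the RGS domain. RGS10, RGS12 and RGS14 form another subfamily, in which RGS12 and RGS14 also carry Ras-binding and GoLoco domains, and RGS19 belongs to a further subfamily named after RGSZ.

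RGS18, RGS1, RGS13 and RGS2 lie close together on chromosome 1, with RGS21 between the first and the others, and RGS18 fell where the others rose, so the DNA upstream of each is shown. The sequences are the 250 bases before the annotated start site, on the plus strand, from RefSeq (GRCh38.p14), at chr1:192158212-192158461 for RGS18, chr1:192575523-192575772 for RGS1, chr1:192635897-192636146 for RGS13 and chr1:192808789-192809038 for RGS2. Capitals mark matches to any of 5 motifs searched on both strands.
RGS18: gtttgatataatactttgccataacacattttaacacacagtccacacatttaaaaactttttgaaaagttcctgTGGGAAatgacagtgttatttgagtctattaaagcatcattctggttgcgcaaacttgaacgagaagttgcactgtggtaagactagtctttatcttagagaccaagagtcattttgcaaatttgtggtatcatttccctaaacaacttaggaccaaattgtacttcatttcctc
RGS1: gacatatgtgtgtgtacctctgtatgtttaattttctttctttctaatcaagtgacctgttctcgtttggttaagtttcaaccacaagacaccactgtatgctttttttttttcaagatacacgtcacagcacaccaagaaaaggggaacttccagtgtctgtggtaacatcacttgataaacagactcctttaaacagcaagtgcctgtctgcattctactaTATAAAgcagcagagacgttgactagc
RGS13: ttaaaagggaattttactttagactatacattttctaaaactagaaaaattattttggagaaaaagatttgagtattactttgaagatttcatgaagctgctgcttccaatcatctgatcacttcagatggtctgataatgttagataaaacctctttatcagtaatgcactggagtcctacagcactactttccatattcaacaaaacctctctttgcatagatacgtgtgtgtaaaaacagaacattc
RGS2: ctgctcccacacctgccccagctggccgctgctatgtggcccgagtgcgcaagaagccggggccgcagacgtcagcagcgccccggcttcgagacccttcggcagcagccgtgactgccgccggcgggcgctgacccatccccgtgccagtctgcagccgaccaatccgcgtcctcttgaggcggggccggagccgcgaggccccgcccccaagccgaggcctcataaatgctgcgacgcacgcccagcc
The motifs were TGGGAA (the core bound by RBPJ, the DNA-binding partner of Notch), GAAANNGAA (most of an interferon-response element), TGANTCA (AP-1), TTCNNNGAA (a STAT site) and TATAAA (the TATA box). In this window RGS18 held TGGGAA, 175 bases before the start, and RGS1 held TATAAA, 27 bases before it. RGS13 and RGS2 held no match, and no matches overlapped. Of 35116 windows of the same length in the table, 11.2% held TGGGAA, 3.41% GAAANNGAA, 6.57% TGANTCA, 6.57% TTCNNNGAA and 6.8% TATAAA. All 10 members had entries, 20 in all since some have several start sites, of which 1 held TGGGAA, 2 held TATAAA and 0 held the other motifs.

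On Dll4-Fc, RGS1, RGS13 and RGS2 rose steeply, RGS3 and RGS10 rose slightly, RGS18 fell slightly, and RGS12, RGS14, RGS16 and RGS19 did not pass the test. Read from the brightest probe set of each gene, 5 of the 10 genes rose and 1 fell, where 10.1% of all genes rose and 12.1% fell. Over probe sets, 8 of the 31 rose and 1 fell, against 7.21% and 9.26% of all 54613 probe sets tested. The test was limma's, adjusted over all probe sets, with an adjusted p of 0.05 as the threshold. Without untreated replicate 2, or without Dll4-Fc replicate 2, 5 probe sets and 3 genes rose. RGS1, RGS2 and RGS13 rose whichever array was left out, while the fall passed, among fits with an array left out, only without untreated replicate 3 or Dll4-Fc replicate 3. The same 8 and 1 probe sets were those whose groups did not overlap, which was so for 14.1% of all probe sets in the upward and 19% in the downward direction. The median difference was 0.16 over the 10 genes and -0.01 over all genes, in log2 units of Dll4-Fc minus untreated, as are all differences below.

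**Figure D1:**
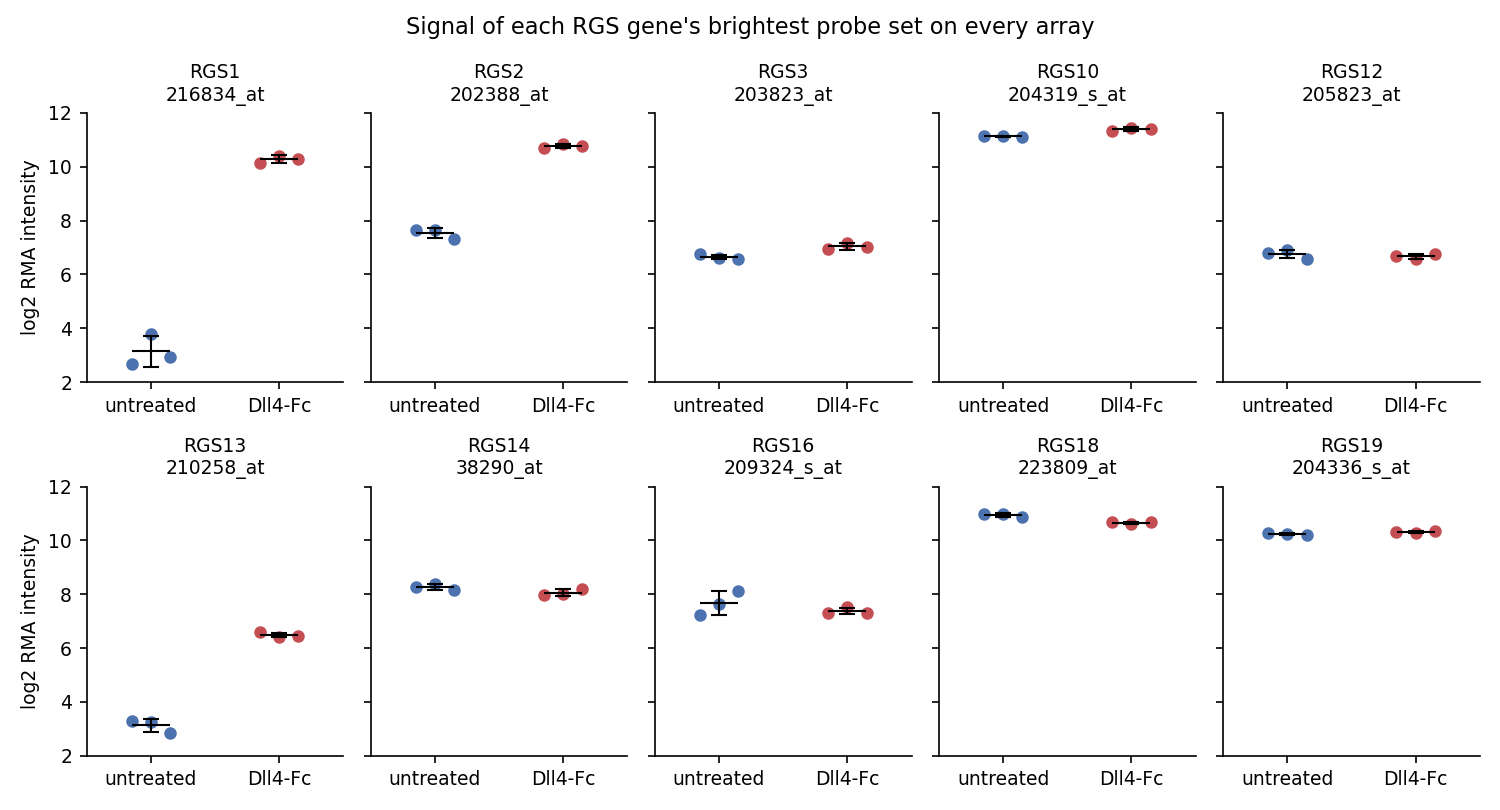
Log2 RMA intensity (vertical axis) of the brightest probe set of each of the 10 RGS genes on the 3 untreated (blue) and 3 Dll4-Fc (red) arrays; the bar is the mean and the whisker the SD. RGS1, RGS2 and RGS13 show groups far apart, while RGS12, RGS14, RGS16 and RGS19 overlap; heights of different probe sets are not comparable.

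Over all probe sets, arrays correlated at 0.996 to 0.998 inside the groups and 0.984 to 0.988 across them. For ACTB the log2 signal at the 3' end exceeded that at the 5' end, a measure of RNA integrity, by 0.69 to 0.78 in untreated and 0.63 to 0.70 in Dll4-Fc arrays. The myeloid markers LYZ, SPI1, MPO, CSF1R and CSF3R, all 5 measured of 7 listed, lay above the median signal of all probe sets (5.70 on the log2 scale) in both groups, and 3 rose and 2 fell. Above the median in both groups were also 3 of 4 B cell and 4 of 5 megakaryocyte or platelet markers, so a place above the median does not set the myeloid list apart from these. Of the T cell markers 1 of 5 lay above it in untreated and 0 in Dll4-Fc arrays. In each group 1 of 3 mast cell, 1 of 2 erythroid and 1 of 5 fibroblast markers did. The summed intensity of the 5 myeloid markers was 4458 to 4799 in untreated and 14989 to 17407 in Dll4-Fc arrays. This sum mostly follows LYZ, by far the brightest (untreated mean 11.87 on the log2 scale), which rose by 2.00. CSF1R rose by 1.75 and SPI1 by 0.31, while MPO fell by 0.79 and CSF3R by 0.45. RGS1 and RGS13 are best known from B cells, whose 4 measured markers of 5 listed (MS4A1, CD79A, CD79B and PAX5) summed to 318 to 322 in untreated and 352 to 405 in Dll4-Fc arrays. PAX5 was the only 1 of them to rise (0.60, adjusted p = 0.00564 by limma), and CD79A differed by -0.08 and MS4A1 by -0.19. The 5 markers of megakaryocytes and platelets, where RGS18 is abundant, summed to 337 to 393 and 324 to 348. Only GP9 passed, with a fall of 0.25 (adjusted p = 0.049 by limma). PF4 (0.02), PPBP (0.07), ITGA2B (0.05) and GP1BA (0.06) did not pass. For mast cells, where RGS13 is also known, the 3 measured markers of 4 listed (CPA3, TPSAB1 and HDC) summed to 115 to 135 and 124 to 138. Of these, 0 rose and 0 fell. The part of other cells in the RGS values was not tested.

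RGS1, which restrains chemokine-driven migration of lymphocytes, changed most. Its brightest probe set, 216834_at, read 2.69, 3.80 and 2.95 on the log2 scale in the untreated samples and 10.15, 10.42 and 10.31 in the Dll4-Fc samples. The lowest Dll4-Fc value lay far above the highest untreated one. The difference was 7.14 ± 0.25 (SE, n = 3 per group), with an adjusted p of 1.1e-06 by limma. In untreated cells it was brighter than 2.95% of probe sets, close to the bottom of the scale, so no fold is given and the size is uncertain: with 16 intensity units added to every value the difference was 5.66. The second probe set, 202988_s_at, went from 4.08, 3.73 and 4.39 to 8.49, 8.41 and 8.54, a difference of 4.42 ± 0.15, from a signal brighter than 21.7% of probe sets. The third, 202989_at, stayed near the bottom of the scale in both groups, at 2.97, 3.18 and 2.90 against 3.25, 3.13 and 3.26, and its difference of 0.19 (95% interval -0.01 to 0.40) did not pass. Averaged over its 3 probe sets, RGS1 rose by 3.92.

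RGS2, which acts preferentially on the Gq class of alpha subunits, has a single probe set and was already well expressed without the ligand. The untreated samples read 7.64, 7.64 and 7.34 and the Dll4-Fc samples 10.69, 10.85 and 10.76. No values overlapped, and the spread within each group was small beside the gap. The rise was 3.23 ± 0.10 (SE, n = 3 per group), or 9.37-fold (adjusted p = 5.4e-07 by limma). In untreated cells the probe set was brighter than 72.4% of all, so this fold does not start from the bottom of the scale, and adding 16 intensity units gave the lowest estimate over 16 alternatives, 3.12.

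RGS13, known from germinal centre B cells and mast cells, moved from near the bottom of the scale to a moderate signal. Its brightest probe set, 210258_at, read 3.29, 3.26 and 2.85 in untreated and 6.58, 6.41 and 6.46 in Dll4-Fc samples. Every Dll4-Fc sample stood clear of every untreated sample. The difference was 3.35 ± 0.12 (adjusted p = 1.2e-06 by limma). The untreated signal was brighter than 2.76% of probe sets, so the size is uncertain, and it was 2.09 with 16 intensity units added. Another probe set, 1568752_s_at, rose by less, from 2.73, 2.71 and 2.82 to 3.42, 3.27 and 3.27 (0.57 ± 0.07, adjusted p = 0.00136), and lay at the floor of the array, brighter than 0.0110% of probe sets in untreated and 1.36% on average over all arrays. The remaining one, 1568751_at, differed by -0.12 (95% interval -0.32 to 0.07), did not pass, and was on average brighter than 0.176% of probe sets. The mean of the 3 probe sets rose by 1.26. The RGS13 rise therefore rests on 210258_at.

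RGS3, a larger R4 member with several isoforms, rose slightly. Its brightest probe set, 203823_at, read 6.75, 6.61 and 6.59 in untreated and 6.93, 7.18 and 7.01 in Dll4-Fc samples. The groups did not overlap. The difference was 0.39 ± 0.09 (1.31-fold, adjusted p = 0.0174 by limma), and 232223_at gave 0.32 ± 0.07 (adjusted p = 0.0207), while 220300_at gave 0.20 ± 0.12 and did not pass. The call for 203823_at was lost without untreated replicate 2 (adjusted p = 0.0675) and without Dll4-Fc replicate 2 (0.0590), and that for 232223_at when any single Dll4-Fc array, or untreated replicate 2, was left out (0.0520 to 0.0764).

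RGS18, expressed in blood progenitors, platelets and myeloid cells, was the only member to fall. Its single probe set read 10.98, 10.98 and 10.86 in untreated and 10.67, 10.60 and 10.68 in Dll4-Fc samples. All Dll4-Fc values lay below all untreated ones. The fall was -0.29 ± 0.07 (1.22-fold, adjusted p = 0.0231 by limma), from a signal brighter than 94.8% of probe sets. The adjusted p was 0.0755 without untreated replicate 1, 0.0902 without untreated replicate 2, 0.0730 without Dll4-Fc replicate 1 and 0.0906 without Dll4-Fc replicate 2, so this call does not hold without those arrays.

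RGS16, an R4 brake induced by activation in lymphocytes, varied more among the untreated samples than between the groups. Its brightest probe set, 209324_s_at, read 7.23, 7.65 and 8.11 in untreated and 7.30, 7.52 and 7.31 in Dll4-Fc samples. Untreated replicate 3 was the highest of the 6 and untreated replicate 1 the lowest. The same arrays took the extreme untreated places at 209325_s_at, with 6.73, 6.90 and 7.31 against 6.78, 6.98 and 6.72. The difference at 209324_s_at was -0.29 ± 0.20 (95% interval -0.75 to 0.17) and did not pass; it was -0.06 without untreated replicate 3 and -0.51 without untreated replicate 1.

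Among the other subfamilies only RGS10, which is abundant in macrophages and microglia, passed. Its brightest probe set, 204319_s_at, read 11.16, 11.13 and 11.12 in untreated and 11.32, 11.46 and 11.41 in Dll4-Fc samples. The groups did not overlap, but the gap was small. The rise was 0.26 ± 0.07 (1.19-fold, adjusted p = 0.0318 by limma). It did not pass when any 1 of the 6 arrays was left out, with adjusted p between 0.0552 and 0.119, nor with each array centred on its median (0.0554), and the other 2 probe sets gave 0.13 and 0.15 without passing. RGS14, a scaffold that joins G protein and Ras signalling, read 8.28, 8.39 and 8.15 in untreated and 7.97, 8.02 and 8.20 in Dll4-Fc samples at its brightest probe set, 38290_at. One Dll4-Fc value lay inside the untreated range. The difference of -0.21 (95% interval -0.42 to -0.00490, before adjustment) had an adjusted p of 0.168 by limma, and 0.0264 when arrays were weighted by their quality. In 15 of 16 alternatives RGS14 did not pass. Its other probe sets, 204280_at (-0.16) and 211021_s_at (0.0061), did not pass either.

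RGS12, a multidomain relative of RGS14, had 10 probe sets, more than any other member, and 0 of them passed by limma at either an adjusted or an unadjusted p under 0.05. Their differences ran from -0.13 to 0.12 with a median of -0.06, and the groups overlapped at all 10. The brightest, 205823_at, read 6.79, 6.89 and 6.58 in untreated and 6.68, 6.57 and 6.76 in Dll4-Fc samples, with a 95% interval of -0.31 to 0.13 for the difference. RGS19, which acts on the Gi class and is also called GAIP, read 10.29, 10.23 and 10.20 in untreated and 10.33, 10.27 and 10.33 in Dll4-Fc samples. Its difference of 0.07 ± 0.06 did not pass, with a 95% interval of -0.07 to 0.21. RGS19 was brighter than 91.7% of probe sets.

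**Figure D2:**
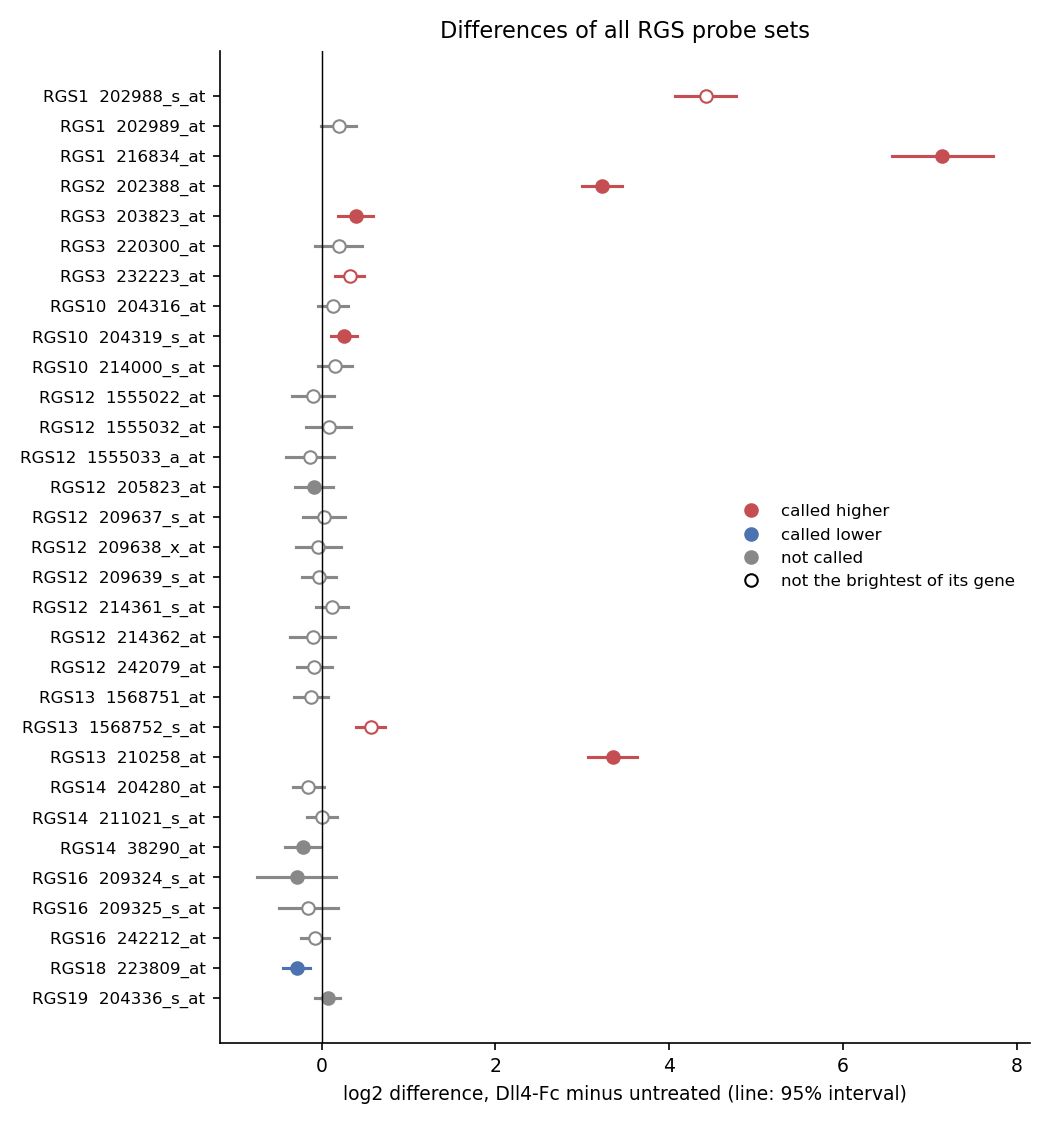
Log2 difference of Dll4-Fc minus untreated (horizontal axis) for each of the 31 RGS probe sets, with its 95% interval; filled points are the brightest probe set of a gene, red passed as higher, blue as lower and grey did not pass. RGS1, RGS2 and RGS13 lie far to the right, and for RGS1 and RGS13 one probe set each lies near 0.

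The steep rises were neighbours. In the RefSeq gene order the protein-coding genes run RGS18, RGS21, RGS1, RGS13 and RGS2, and RGS21 was not analysed here. RGS1, RGS13 and RGS2, with differences of 7.14, 3.35 and 3.23, are consecutive. Next to them, UCHL5, a deubiquitinase gene, differed by 0.09 ± 0.06 and RO60, which encodes an RNA-binding autoantigen, by -0.07 ± 0.07, and neither passed. Further on, GLRX2 (0.27 ± 0.06) and CDC73 (0.61 ± 0.10), a subunit of the PAF transcription complex, rose. On the far side of RGS18, BRINP3 differed by 0.05 ± 0.08 and did not pass, while PLA2G4A and PTGS2, which release and oxidise arachidonic acid, rose by 0.67 ± 0.07 and 0.59 ± 0.11. The change at RGS1, RGS13 and RGS2 was thus larger than at any of the other 10 measured genes of this stretch, which was examined after the members' values were seen. Among those 10, some were dim in both groups, where a change could be missed. Mean untreated and Dll4-Fc signals were 3.04 and 3.09 for BRINP3, 3.14 and 3.16 for B3GALT2, and 3.59 and 3.42 for KCNT2. RGS16 lies elsewhere on chromosome 1, beside RGS8, which differed by -0.21 ± 0.10 and did not pass, and NPL, the next gene along, rose by 0.92 ± 0.09.

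**Figure D3:**
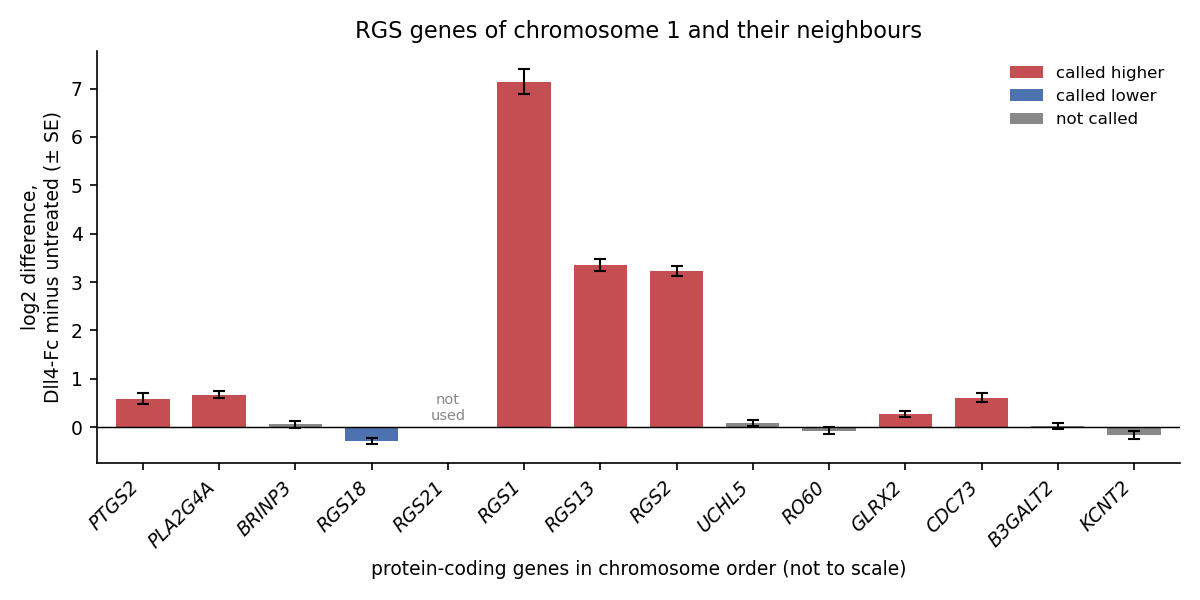
Log2 difference of Dll4-Fc minus untreated, with its standard error, for 14 consecutive protein-coding genes around the RGS genes of chromosome 1, in order and not to scale. The bars of RGS1, RGS13 and RGS2 stand above 3, and those of all other measured genes lie under 1.

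Genes with the most similar profile over the 6 arrays were taken by the root mean square difference between log2 values centred on each gene's mean. For RGS1 they were SPP1 (0.37), which encodes osteopontin, TDO2 (0.44), which starts tryptophan breakdown, and A2M (0.46), a protease inhibitor. For RGS2 they were ACP3 (0.07), an acid phosphatase, LINC01094 (0.10), a noncoding RNA, and ENTPD1 (0.11), the surface enzyme CD39 that degrades extracellular ATP. For RGS13 they were ACP3 (0.08), IFITM1 (0.12), an interferon-induced membrane protein, and ZNF366 (0.12), a zinc finger gene. ACP3 stood first for both RGS2 and RGS13. Its own values were 7.81, 7.81 and 7.43 in untreated and 10.99, 11.08 and 11.00 in Dll4-Fc samples. With 2 groups of 3, this measure mostly picks genes with a difference of the same size.

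In the rest of the RGS family only RGS22 passed. Of 11 further RGS genes 10 were measured, and 0 rose and 1 fell by limma, beside 10.1% and 12.1% of all genes; at an unadjusted p under 0.05, 1 rose and 2 fell. The differences ran from -0.48 to 0.21 with a median of 0.04. RGS22, a large member known mainly from testis, fell by 0.48 ± 0.13 (limma's adjusted p = 0.0466). This call was lost without untreated replicate 1 or 2 or any Dll4-Fc replicate, where 0 of these genes fell. Without untreated replicate 3, 1 of these genes fell, but it was not identified and may not be RGS22. RGS17, a relative of RGS19, differed by -0.30 ± 0.09 (adjusted p = 0.0534). RGS5, an R4 member of vessel wall cells, differed by 0.21 ± 0.09, and RGS4, known from neurons, by 0.05 ± 0.14. In untreated cells RGS22 was brighter than 42.4% of probe sets, so its signal lay in the dim part of the scale.

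Among the G protein subunits that RGS proteins act on or that join them, GNG4, GNB5 and GNAQ fell and GNB4 rose. All 33 listed alpha, beta and gamma subunit genes were measured, so 1 rose and 3 fell, beside 10.1% and 12.1% of all genes. The median difference was -0.0059, beside -0.014 over all genes. GNG4, a gamma subunit, fell by 0.92 ± 0.09 (1.89-fold, limma's adjusted p = 0.000265). GNB5, the beta subunit that pairs with RGS6, RGS7, RGS9 and RGS11, fell by 0.76 ± 0.08 (1.69-fold), and GNAQ, the Gq alpha subunit, by 0.35 ± 0.06 (1.27-fold). GNB4, a beta subunit, rose by 0.26 ± 0.06, a call lost when any array but untreated replicate 3 was left out. The Gi alpha subunits, through which most chemoattractant receptors signal, did not pass: GNAI1 differed by -0.02, GNAI2 by -0.16 and GNAI3 by 0.08.

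Many receptors upstream of these G proteins rose. Of 50 listed G protein-coupled receptors of myeloid cells 44 were measured, and 19 rose and 5 fell, against the 10.1% and 12.1% of all genes, with a median of 0.17. GPR65, a proton-sensing receptor, rose most (3.71 ± 0.11, 13.1-fold). It was followed by C3AR1, the receptor for complement C3a (3.53 ± 0.08, 11.6-fold), and LPAR6, a lysophosphatidic acid receptor (3.21 ± 0.08, 9.25-fold). C5AR1, the receptor for complement C5a, rose by 2.59 ± 0.14 from a dim signal, brighter than 18.8% of probe sets, and GPR183, which senses oxysterols, by 2.16 ± 0.06 (4.47-fold). The largest falls were those of the cannabinoid receptor gene CNR1 (-2.37 ± 0.14), the chemokine receptor gene CXCR2 (-0.47 ± 0.09) and the leukotriene B4 receptor gene LTB4R (-0.38 ± 0.09). Fewer fell when some of the arrays were dropped: 2 without untreated replicate 1, 3 without untreated replicate 2, and 2 each without the first or the second Dll4-Fc replicate. Without untreated replicate 3, 6 fell.

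Effectors and regulators below the receptors went both ways. Measured were 33 of 36 listed genes, of which 7 rose and 7 fell, beside 10.1% and 12.1% of all genes, with a median of -0.02. PLCB1, a phospholipase C activated by Gq, rose by 1.78 ± 0.16 (3.43-fold, adjusted p = 0.000245 by limma). Among the adenylyl cyclases, which make cyclic AMP, ADCY8 (0.78 ± 0.14), ADCY7 (0.77 ± 0.06) and ADCY6 (0.49 ± 0.08) rose and ADCY9 fell (-0.72 ± 0.07). The ADCY8 signal was dim, brighter than 17.4% of probe sets in untreated cells. PIK3R5, the regulatory subunit of the phosphoinositide 3-kinase driven by beta and gamma subunits, rose by 0.43 ± 0.07. GRK3, a kinase that marks active receptors for arrest, fell by 0.77 ± 0.10 (1.71-fold) and GPSM2, which like RGS14 binds inactive Gi alpha subunits, by 0.51 ± 0.06 (1.43-fold). Dropping Dll4-Fc replicate 1 left 4 that fell.

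**Figure D4:**
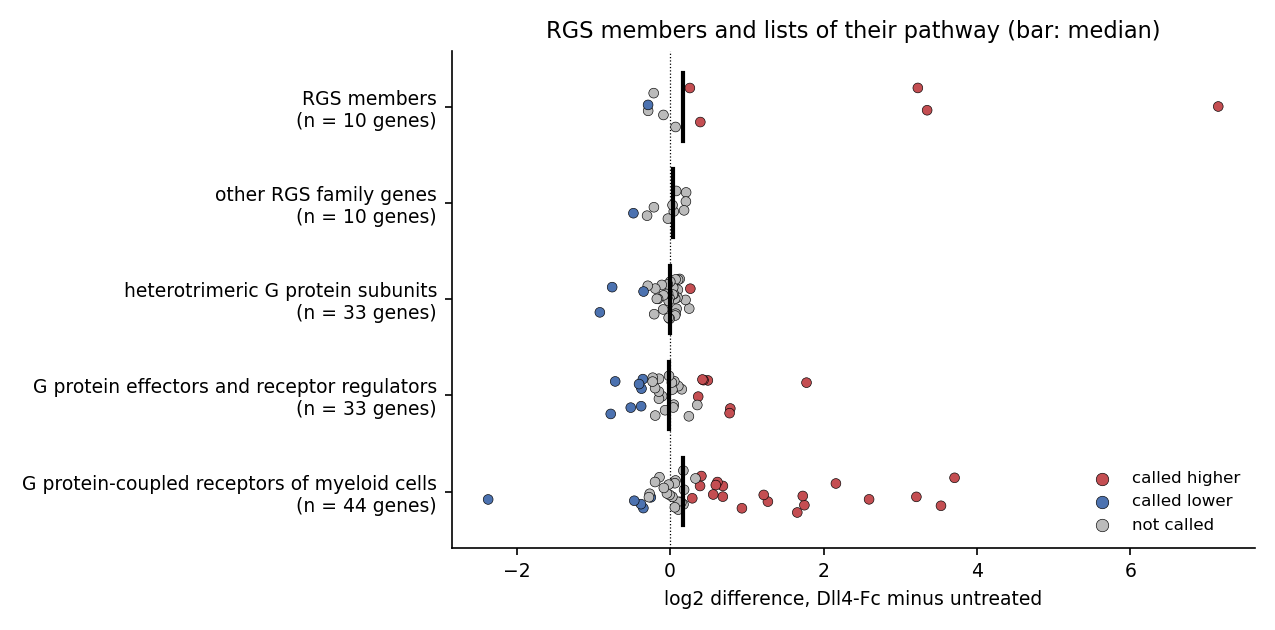
Log2 difference of Dll4-Fc minus untreated for each gene of the RGS members and of 4 lists of their pathway, 1 point per gene (red passed as higher, blue as lower, grey did not pass), with the median as a black bar. Rises above 2 are found among the RGS members and the receptors, and every G protein subunit lies between -1 and 1.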

How the data were processed

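Expression was measured on Affymetrix Human Genome U133 Plus 2.0 arrays in 3 untreated and 3 Dll4-Fc samples of THP1. The deposited values are intensities on a linear scale, 1 per probe set and array, made by the authors with RMA (background correction, quantile normalization and probe summary), per the submitters' processing notes, in a software version that the labels leave out. Medians per array lay between 50.6 and 52.7 and values between 5.87 and 28188. RMA compresses the differences of dim probe sets and its quantile step hides a change in total RNA per cell.

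Intensities were log2 transformed without an offset, 62 control probe sets were left out, and 54613 probe sets were fitted with limma 3.58.1 in R 4.3.3 (lmFit, eBayes, 2-sided, 4 residual degrees of freedom) and adjusted by Benjamini-Hochberg over all of them. Standard errors of the differences had a median of 0.086, and 3 arrays per group limit the precision. A gene was read from its probe set with the highest mean; 41091 tested probe sets had 1 symbol, and 41037 of their gene numbers matched the RefSeq table (GRCh38.p14), with 0 symbols changed. Every member probe set was reported. Of each pathway list up to 5 genes with the largest rise and 3 with the largest fall among those that passed were named, and for members that changed at least 2-fold the 3 most alike genes. Other genes were named after their values were seen. The members and lists were chosen with earlier results of these data known. The procedure was tested on simulated data. Alternatives tried were a replicate block, cyclic loess, median centring, an offset of 16, no dim or no shared probe sets, a trended robust prior, array weights, 1 probe set or the mean of probe sets per gene, and leaving out each array. Over all probe sets, deviations of same-numbered arrays from their group means correlated at -0.02, -0.14 and -0.13. This shows no shift shared by equal numbers, but taken over all probe sets it cannot exclude that the samples were paired.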

Additional observations from a re-analysis of the deposited data

How the results depend on the processing

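Of the 31 probe set differences, 20 kept their direction and their side of the threshold under every alternative that could be fitted for them, 5 changed side and 6, none of which passed, changed sign in at least 1. RGS1 (3.92 to 7.47), RGS2 (3.12 to 3.30) and RGS13 (1.26 to 3.43) passed under all alternatives that gave them a value; without dim probe sets RGS13 was not measured. With the replicate number as a block, a pairing that is not known for these samples, 5 RGS probe sets and 3 RGS genes rose and 0 fell. In that fit 0 other RGS genes fell, 0 G protein subunits rose and 3 receptors fell. Leaving out 1 array gave 5 to 7 RGS probe sets and 3 to 4 RGS genes higher, and 0 to 1 of each lower; among other RGS genes 0 to 1 rose and 0 to 1 fell, 0 to 1 G protein subunits rose, 2 to 6 receptors fell and 4 to 8 effectors fell. Without dim probe sets 5 RGS probe sets rose, 0 other RGS genes fell, and 2 G protein subunits rose and 6 fell. Without shared probe sets 5 RGS probe sets rose, 1 other RGS gene rose and 2 fell, and 4 effectors rose. Array weights gave 2 RGS probe sets, 2 RGS genes, 2 other RGS genes, 6 G protein subunits and 11 effectors lower. With cyclic loess 0 other RGS genes fell and 2 G protein subunits rose. With the offset of 16, 2 G protein subunits rose and 5 fell, and with the trended robust prior 3 and 5. Adjusted over genes alone, 2 other RGS genes fell and 2 G protein subunits rose. With the mean of probe sets 1 other RGS gene rose and 2 fell, 0 G protein subunits rose and 5 fell, and 4 effectors fell. Sign changes were small: RGS14 211021_s_at gave -0.0046 with median centring and -0.036 to 0.054 when 1 array was left out, and RGS12 209638_x_at gave 0.0022 with array weights and -0.10 to 0.079. Leaving out 1 array also gave -0.048 to 0.14 for RGS12 209637_s_at, -0.074 to 0.028 for 209639_s_at, -0.14 to 0.0052 for 242079_at and -0.28 to 0.010 for RGS16 209325_s_at. Apart from the smaller number of arrays or probe sets in some alternatives, the cause was not tested.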
